A study of Homo sapiens with 12 samples.

Results

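Genes were selected whose RNA went in opposite directions in the SW1990 and CFPAC-1 lines when each line was sorted on the GCTM-5 antigen. A gene was a member when its fitted change between positive and negative cells was over 2-fold higher in one line and over 2-fold lower in the other, with changes taken on the log2 of RPKM plus 0.1. RPKM is the number of reads scaled to gene length and to library size. The fit held 16236 of the 23346 genes listed, those whose RPKM averaged 0.1 or more over the 12 samples, and 180 of them met the rule. Of these, 76 were higher with the antigen in SW1990 and lower with it in CFPAC-1, and 104 showed the reverse. The rule used the changes themselves, so the changes of the members are a description of what was selected.

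Both lines are established human pancreatic adenocarcinoma lines, and the antibody recognises a cell surface antigen complex related to CA 19-9. The 4 groups, each with 3 samples, were GCTM-5 positive SW1990, GCTM-5 negative SW1990, GCTM-5 positive CFPAC-1 and GCTM-5 negative CFPAC-1. All groups were stained and sorted alike, and the gates kept only strongly stained or unstained cells, so cells with intermediate staining are in no group. The study describes sorts in triplicate, and no label says that the replicates came from separate cultures, so p-values measure the spread between these samples. In bulk RNA of this kind, fewer cells of a type and less RNA per cell cannot be told apart.

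The library totals lay between 9969697 and 26159330 reads. Both extremes were positive CFPAC-1 samples, and the shallowest, replicate 3, also stood apart from the other 2 samples of its group on the fourth principal component, which held 2.83% of the variance. All 8 adenocarcinoma markers checked exceeded 1 RPKM in at least 1 sample, and their summed level was 1634 to 1976 RPKM in negative SW1990, 4791 to 5170 in positive SW1990, 5938 to 6724 in negative CFPAC-1 and 6956 to 8793 in positive CFPAC-1 cells. Of 7 acinar markers, 4 were at 0 in all samples and none exceeded 1 RPKM. The summed levels of 10 fibroblast and 7 endothelial markers were higher in negative than in positive SW1990 cells. The fibroblast sums ran from 12.9 to 22.9 against 3.90 to 4.88 RPKM. The endothelial sums ran from 14.99 to 18.96 against 1.52 to 2.29 RPKM. Only COL1A1, LUM and PDGFRB of the first list and CDH5 and KDR of the other exceeded 1 RPKM in any sample. Of 10 leukocyte markers, only CD14, CD68 and LYZ did. The leukocyte sums spanned 179 to 210 RPKM for CFPAC-1 negatives and 163 to 228 for the positives. For SW1990 they spanned 35.7 to 49.97 RPKM for negatives against 16.3 to 34.9 for positives. The part of these lists in the results was not tested. None of the markers was a member.

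Several families among the members have textbook roles in duct epithelium and in its surroundings. Mucins are large glycoproteins that form the secreted gel or the surface coat of epithelia. Many carry the sugar chains on which CA 19-9 is found, but the study did not find MUC1, MUC2, MUC5A or MUC16 in the GCTM-5 complex. Motile cilia, the beating cilia of airway and oviduct, are built under the transcription factor FOXJ1. CXC chemokines that carry the ELR motif are secreted proteins that attract neutrophils, and chemokine receptors such as CXCR4 are read out on the receiving cell.

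In SW1990 the changes of the 76 genes higher in its positive cells ran from 1.01 to 4.56 on the log2 scale with a median of 1.74, and in CFPAC-1 the changes of these genes ran from -3.23 to -1.001 with a median of -1.31. The 104 genes of the reverse kind had median changes of -1.48 in SW1990 and 1.45 in CFPAC-1. The difference between the lines, the SW1990 change minus the CFPAC-1 change, passed an adjusted p of 0.05 in limma for 66 of the 76 and for 96 of the 104. Among all genes fitted, 9.16% passed it with a higher and 17.8% with a lower change in SW1990, and nothing is read from the comparison since the rule used the same contrast. Of 180 members, 24 were microRNA or small nucleolar RNA entries, with 2 to 79 reads over all 12 libraries, of which 7 passed that test. Of the other 156 members, 155 passed it, and FOXB1 was the exception.

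**Figure D1:**
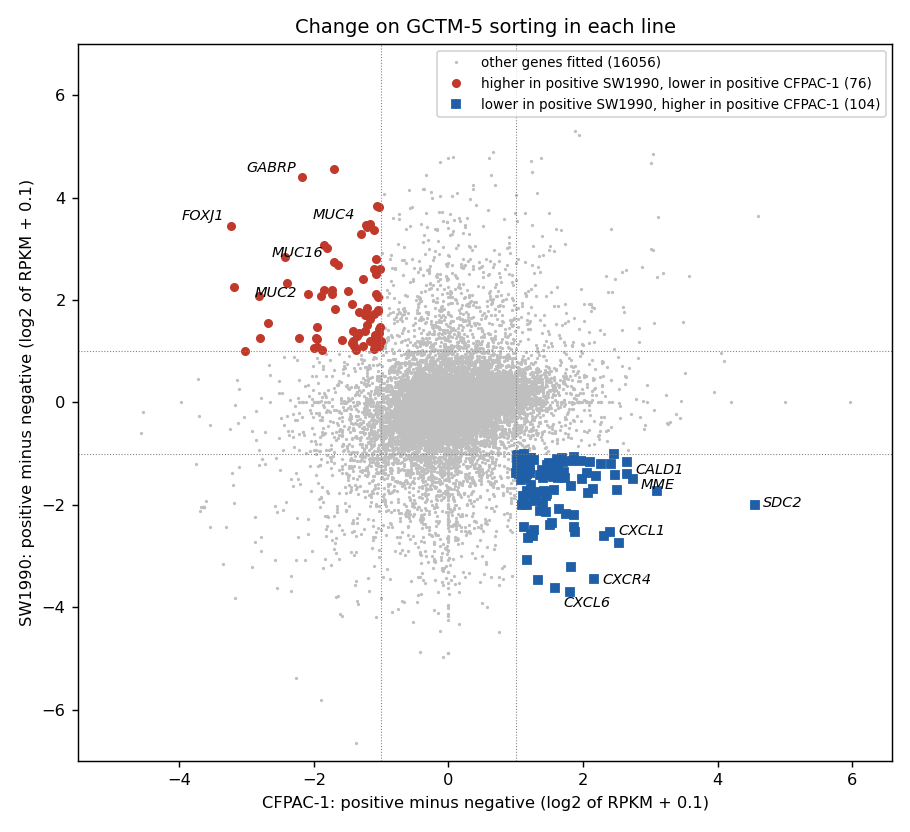
Fitted change between GCTM-5 positive and negative cells in CFPAC-1 (horizontal axis) and in SW1990 (vertical axis), each on the log2 of RPKM plus 0.1, for 16236 genes. Dotted lines mark 2-fold changes; the 76 red circles at upper left and the 104 blue squares at lower right are the genes that went opposite ways, with FOXJ1 and GABRP farthest into one corner and SDC2 and CXCR4 among those farthest into the other.

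Changes over 2-fold with an unadjusted p under 0.01 in both lines were found in 36 of the 76 genes and in 74 of the 104. Such calls covered 4.59% of all genes as higher and 7.48% as lower in positive SW1990 cells, and 5.65% as higher and 4.13% as lower in positive CFPAC-1 cells. Positive and negative samples did not overlap in either line for 43 of the 76, where 2.42% of all genes were apart in that pattern, and for 79 of the 104, where 4.23% were. The members made up 8.56% of the 888 genes over 2-fold higher in positive SW1990 cells. Of all 16236 genes, 895 were over 2-fold lower in positive CFPAC-1 cells. They also made up 9.45% of the 1101 genes over 2-fold higher in positive CFPAC-1 cells. Of all 16236 genes, 1416 were over 2-fold lower in positive SW1990 cells. Among the genes over 2-fold lower, the members were 8.49% in CFPAC-1 and 7.34% in SW1990. Nothing is read from these shares. For comparison, 132 genes were over 2-fold higher and 271 over 2-fold lower in the positive cells of both lines. Over the whole table the difference between lines had a median of -0.15, and it was called higher in SW1990 for 1487 genes and lower for 2887. With each sample centred on its median the split was 1987 and 1988, and the rule then gave 94 and 88 members, of which 76 and 88 were members before.

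FOXJ1, the regulator of motile ciliogenesis, had the largest difference of all members. It lies on the minus strand at chr17:74132414-74137326 of GRCh37. It was measured at 0.958, 0.537 and 1.5 RPKM in negative SW1990 samples against 4.06, 19.3 and 17 in positive ones. The order was turned in CFPAC-1, with 8.76, 15.6 and 14.3 RPKM in negative samples and 0.753, 1.74 and 1.44 in positive ones. Positive SW1990 and negative CFPAC-1 cells thus overlapped at the high level, and negative SW1990 and positive CFPAC-1 cells overlapped at the low one. The fitted changes were 3.44 in SW1990 and -3.23 in CFPAC-1 on the log2 scale, a difference of 6.67 ± 0.77 (SE).

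RSPH1, a radial spoke protein of the ciliary axoneme, followed at lower levels. Its values were 0.427, 0.314 and 0.497 RPKM in negative and 1.02, 1.34 and 0.909 in positive SW1990 samples, and 3.76, 4.18 and 4.63 in negative and 1.65, 1.48 and 0.955 in positive CFPAC-1 samples. No positive sample overlapped a negative one within a line, and the difference was 2.79 ± 0.33. These were the 2 members among 16 motile cilia genes fitted. Over that list, 4 genes were called higher and none lower in positive SW1990 cells, while 1 was called higher and 7 lower in positive CFPAC-1 cells. The median change of the list was 0.11 in SW1990 and -0.63 in CFPAC-1, beside -0.04 and 0.05 over all genes. DNAH5, a dynein arm motor protein on the list, changed by -0.01 in SW1990 and fell by 1.12 in CFPAC-1.

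Mucins gave 4 members, all of the direction of FOXJ1. MUC4, a membrane mucin at chr3:195473636-195538844, stood at 0.0492, 0.0614 and 0.0673 RPKM in negative SW1990 and at 1.17, 2.36 and 1.63 in positive SW1990 samples. CFPAC-1 samples held more of it, with 42.7, 38.1 and 67.2 RPKM in negative and 23.4, 24.7 and 14.5 in positive samples. Every positive SW1990 sample was thus above its negative counterparts and still below every CFPAC-1 sample, and the difference between the lines' changes was 4.69 ± 0.40. Leaving out negative replicate 3 or positive replicate 3 of CFPAC-1 brought the CFPAC-1 fall of MUC4 to under 2-fold.

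MUC16, the membrane mucin that carries the CA 125 antigen, was measured at 0.57, 1.03 and 1.00 RPKM in negative and 5.04, 9.62 and 4.88 in positive SW1990 samples. In CFPAC-1 the values were 2.62, 3.06 and 8.97 RPKM in negative and 0.988, 2.67 and 0.652 in positive samples, which overlapped. The spread among negative CFPAC-1 samples came from replicate 3, and the difference was 4.44 ± 0.74. MUC2, the gel-forming mucin of goblet cells, had 0.412, 0.294 and 0.479 RPKM in negative and 1.1, 3.41 and 2.15 in positive SW1990 samples. In CFPAC-1 it had 0.584, 0.451 and 0.756 RPKM in negative and 0.0266, 0.124 and 0.0465 in positive samples, so that neither line's samples overlapped. The fitted changes were 2.11 and -2.09, but the positive CFPAC-1 samples held 4 to 20 reads and lay near the pseudocount. By ratios of mean RPKM, MUC2 was 5.62-fold higher in positive SW1990 and 9.11-fold lower in positive CFPAC-1 cells. It was no member with a pseudocount of 1.

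MUC5B, a gel-forming mucin of airway and gland secretions, lies 139880 bases from MUC2 on the same strand of chromosome 11 and was singled out after its values were seen. It changed by 1.26 in SW1990 and by -1.96 in CFPAC-1, with every positive sample apart from the negative ones in both lines. The list of mucin, trefoil and secretory genes did not hold MUC5B, and its members were MUC2, MUC4, MUC16 and CEACAM1. Of its 24 genes fitted, 17 were called higher and 2 lower in positive SW1990 cells, and 2 were called higher and 5 lower in positive CFPAC-1 cells. MUC1, a membrane mucin on the list, went the same 2 ways but missed the rule in CFPAC-1. Its range was 20.4 to 36.5 RPKM in SW1990 negatives against 313 to 393 in the positives, while CFPAC-1 negatives spanned 478 to 511 and the positives 255 to 312, and the changes were 3.60 and -0.82. MUC20 changed by 4.69 and -0.13, and TFF1, a trefoil peptide secreted with mucins, by 4.04 and 1.01.

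GABRP encodes the pi subunit of the type A receptor for gamma-aminobutyric acid, which is found mainly in epithelia outside the brain. It lies on the plus strand at chr5:170190354-170241051. Negative SW1990 samples had 0.147, 0.325 and 0.632 RPKM and positive ones 3.89, 10.4 and 16.9. In CFPAC-1 it was far more abundant, at 538, 935 and 947 RPKM in negative and 129.6, 249.9 and 161 in positive samples. The changes were 4.39 and -2.17, a difference of 6.56 ± 0.71, and no sample of one population overlapped the other in either line. The promoter of GABRP is shown because the gene had the largest difference among members whose promoter was in the RefSeq table used, which gives 250 bases before to 50 bases after the gene's start on GRCh38.p14. It lies on the plus strand at chr5:170783475-170783774 and held none of the motifs searched, which are named further on.
GABRP: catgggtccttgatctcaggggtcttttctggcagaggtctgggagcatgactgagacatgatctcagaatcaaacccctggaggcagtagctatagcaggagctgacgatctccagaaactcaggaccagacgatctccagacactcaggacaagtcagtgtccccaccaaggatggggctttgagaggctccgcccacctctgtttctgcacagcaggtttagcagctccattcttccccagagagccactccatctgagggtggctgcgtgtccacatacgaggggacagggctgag

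Of the membrane proteases and transporters on this side, TMPRSS4, a serine protease anchored in the membrane, reached 157, 208 and 211 RPKM in negative CFPAC-1 samples and 60.2, 101 and 101 in positive ones. In SW1990 it had 0.289, 0.207 and 0.72 RPKM in negative and 2.82, 8.14 and 5.56 in positive samples. KLK8, a secreted serine protease of the kallikrein family, was at 0, 0 and 0.197 RPKM in negative and 0.853, 3.49 and 2.41 in positive SW1990 samples, and at 18.6, 29.1 and 27.1 in negative and 8.72, 13.6 and 13.3 in positive CFPAC-1 samples. Both genes were separated in each line, yet the CFPAC-1 change was the smaller of the 2, at -1.17 for TMPRSS4 and -1.07 for KLK8, and neither had an unadjusted p under 0.01 there. KLK8 was no member without negative replicate 2, negative replicate 3 or positive replicate 1 of CFPAC-1, and TMPRSS4 was none without positive replicate 1. The difference for KLK8 ran from 2.53 to 7.22 over the settings. SLC44A4, a choline transporter-like protein, CLIC5, an intracellular chloride channel protein of the apical cytoskeleton, TMC4, a transmembrane channel-like protein, and SLC22A20, named for the organic anion transporter family and annotated as a transcribed unitary pseudogene, had differences between the lines of 3.88 to 4.64.

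CLIC5 showed the most even reversal of these 4 genes, with 1.48, 1.24 and 1.88 RPKM in negative and 7.35, 10.4 and 14.1 in positive SW1990 samples, and 15.3, 22.9 and 22.8 in negative and 5.01, 5.98 and 8.41 in positive CFPAC-1 samples. It was a member under every one of 21 alternative settings. CLIC5 and TMC4 had an unadjusted p under 0.01 in both lines, while SLC44A4 and SLC22A20 missed it in CFPAC-1. SCNN1A, the alpha subunit of the epithelial sodium channel, was the 1 member among 16 duct ion transport genes. Its values were 29.7, 33.9 and 44.8 RPKM in negative and 55.9, 88.9 and 88.7 in positive SW1990 samples, and 139, 141 and 137 in negative and 49.6, 69.7 and 55.6 in positive CFPAC-1 samples. The positive cells of both lines met in the same range, and the difference was 2.36 ± 0.27. Leaving out 1 of 3 SW1990 samples, negative replicate 1, positive replicate 2 or positive replicate 3, took the SW1990 rise of SCNN1A to under 2-fold.

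HSD11B1, which regenerates active glucocorticoid from its inert form, stood at 0.715, 0.411 and 0.578 RPKM in negative and 7.21, 9.52 and 11.2 in positive SW1990 samples, and at 2.23, 2.83 and 4.00 in negative and 0.684, 2.04 and 1.86 in positive CFPAC-1 samples. The SW1990 change of 3.82 was far larger than the CFPAC-1 change of -1.03, which lay just past the threshold and fell short of it without negative replicate 3 or positive replicate 1 of CFPAC-1. ADH1C, an alcohol dehydrogenase that also oxidises retinol, had 1.92, 1.57 and 2.26 RPKM in negative and 17.7, 15.2 and 15.4 in positive SW1990 samples, and 42.4, 35.2 and 33.5 in negative and 5.81, 8.53 and 23.2 in positive CFPAC-1 samples. Positive CFPAC-1 replicate 3 was the high one, and without it the difference went from 4.82 to 5.39. ADH1C has near-identical neighbours in its gene family, so reads may have been divided among them. CYP2W1, a cytochrome P450 with low expression in most adult tissue, changed by 3.30 and -1.29. Without positive replicate 3 of CFPAC-1 its CFPAC-1 change was -0.83, and it was no member with a pseudocount of 1. The CFPAC-1 falls of HSD11B1 and CYP2W1 had unadjusted p of 0.0148 and 0.0205 in limma.

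HSD11B1 had the next largest difference after GABRP among named genes of this direction whose promoter was in the RefSeq table, so its promoter is shown. In capitals is a match to the box bound by ZEB and SNAI factors. The match reads CAGGTG on the gene's strand and begins 122 bases before the start. The promoter of HSD11B1 lies on the plus strand of GRCh38.p14 at chr1:209685929-209686228.
HSD11B1: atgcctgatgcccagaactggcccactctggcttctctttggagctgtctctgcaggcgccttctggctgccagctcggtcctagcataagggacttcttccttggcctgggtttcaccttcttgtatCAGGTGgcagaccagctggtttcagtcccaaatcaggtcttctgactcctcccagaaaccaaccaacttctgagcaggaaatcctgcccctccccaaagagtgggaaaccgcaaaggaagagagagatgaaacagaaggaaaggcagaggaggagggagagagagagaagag

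ERBB3, a receptor of the EGFR family that binds neuregulins, was measured at 2.94, 2.18 and 4.31 RPKM in negative and 14.1, 20.9 and 18.5 in positive SW1990 samples, and at 44.9, 49.5 and 54.2 in negative and 20.5, 31 and 20.1 in positive CFPAC-1 samples. The difference was 3.58 ± 0.33, and the positive cells of both lines came to neighbouring levels. CEACAM1, a surface adhesion molecule and inhibitory receptor, had 13.5, 17.2 and 20.5 RPKM in negative and 31.4, 63.2 and 51.9 in positive SW1990 samples, and 36.3, 41 and 41 in negative and 14.6, 20.7 and 23.9 in positive CFPAC-1 samples. SEMA3B, a secreted semaphorin, showed 6.09, 5.05 and 9.29 against 17.1, 26 and 23.4 RPKM in SW1990 and 27, 27.4 and 28.2 against 8.92, 12.2 and 14.4 in CFPAC-1, negative samples first. For each of these 3 genes the samples were apart in both lines. Without positive replicate 1 or 3 of CFPAC-1, the CFPAC-1 fall of ERBB3 was under 2-fold. The same held for CEACAM1 without negative replicate 2, negative replicate 3 or positive replicate 1 of CFPAC-1.

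For the remaining listed members of this direction, positive CFPAC-1 replicate 3 lay away from the other 2 samples of its group. KRT23, an inducible type I keratin, had 73, 96.7 and 91 RPKM in negative and 13.9, 18.3 and 74.9 in positive CFPAC-1 samples, so that replicate 3 lay within the negative range. Without it the CFPAC-1 change of KRT23 went from -1.69 to -2.43 and the difference from 3.52 to 4.26. KRT23 was also scarce in SW1990, at 0 to 0.1 RPKM in negative and 0.192 to 0.686 in positive samples. KRT4, a type II keratin of stratified mucosa, was at 3.95, 9.05 and 7.85 RPKM in negative and 5.63, 5.01 and 0.701 in positive CFPAC-1 samples, and without replicate 3 its CFPAC-1 change went from -1.22 to -0.30. COL8A1, a short-chain collagen, was at 2.92, 2.00 and 8.21 RPKM in positive CFPAC-1 samples, of which replicate 3 lay above the lowest negative sample, at 6.91.

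**Figure D2:**
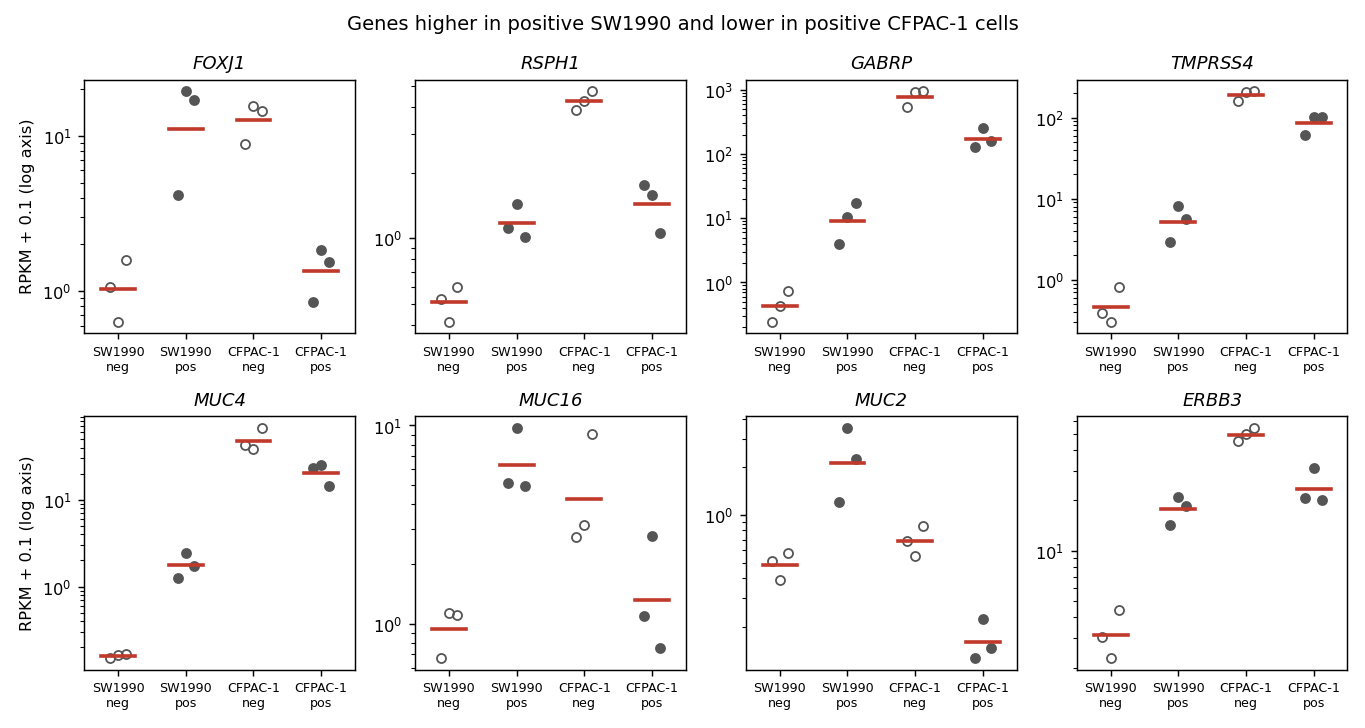
RPKM plus 0.1 on log axes for 8 genes that were higher in positive SW1990 and lower in positive CFPAC-1 cells, with 1 circle per sample (open for GCTM-5 negative, filled for positive, 3 per group) and a red line at the mean of the log values. In each panel the second column stands above the first and the fourth below the third, with overlap only for MUC16 in CFPAC-1; CFPAC-1 starts near 538 to 947 RPKM for GABRP and near 0.451 to 0.756 for MUC2.

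In the reverse direction, a group of chemokines that attract neutrophils and lie next to each other on chromosome 4 fell in positive SW1990 and rose in positive CFPAC-1 cells. CXCL1, at chr4:74735110-74737025, had 182, 229 and 189.8 RPKM in negative and 24.9, 47.9 and 34.2 in positive SW1990 samples. In CFPAC-1 it had 11.4, 9.15 and 9.05 RPKM in negative and 77.4, 51.9 and 35.8 in positive samples. The changes, -2.53 and 2.41, were of nearly equal size, the samples were apart in both lines, and positive cells of the 2 lines overlapped. The difference between lines was -4.94 ± 0.38.

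IL8, now named CXCL8, was at 71.9, 106 and 100.1 RPKM in negative and 11.6, 26.1 and 15.8 in positive SW1990 samples, and at 19.8, 25.9 and 17.8 in negative and 94.7, 69.9 and 67.8 in positive CFPAC-1 samples. The level of negative SW1990 thus overlapped that of positive CFPAC-1, and positive SW1990 overlapped negative CFPAC-1. CXCL6 had 15, 19.2 and 17.5 RPKM in negative and 0.87, 1.74 and 1.22 in positive SW1990 samples, and 6.47, 4.33 and 3.51 in negative and 23.8, 18.5 and 10.0 in positive CFPAC-1 samples. Its SW1990 change of -3.70 was the lowest of any member. On the plus strand, IL8 and CXCL6 are 92924 bases apart and CXCL6 and CXCL1 are 20329 bases apart.

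Not every chemokine of the cluster reversed. CXCL5 changed by 0.66 in SW1990 and 2.69 in CFPAC-1, CXCL3 by 0.74 and 0.74, and CXCL2 by 0.01 and 0.55. Over 39 chemokine and cytokine genes fitted, 3 were members, 5 were called higher and 9 lower in positive SW1990 cells, and 12 were called higher and 2 lower in positive CFPAC-1 cells. The median change was 0.01 in SW1990 and 0.37 in CFPAC-1.

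The promoters of these 3 chemokines are printed so that their shared and unshared elements can be compared, that of CXCL6 by the rule for members with the largest differences and the other 2 added after their values were seen. In capitals are an NF-kB motif in CXCL6 and CXCL1, which begins 90 and 79 bases before the start and matches on both strands, and in IL8 an AP-1 motif 137 bases and a TATA box 31 bases before the start. The NF-kB motif, searched as GGGRNNYYCC, was itself chosen after the values were seen. IL8 held no match to it, but its window holds TGGAATTTCC, which differs from the pattern only in the first letter. The search therefore does not show that IL8 lacks such an element. On the plus strand of GRCh38.p14 the windows are chr4:73836428-73836727 for CXCL6, chr4:73869143-73869442 for CXCL1 and chr4:73740319-73740618 for IL8.
CXCL6: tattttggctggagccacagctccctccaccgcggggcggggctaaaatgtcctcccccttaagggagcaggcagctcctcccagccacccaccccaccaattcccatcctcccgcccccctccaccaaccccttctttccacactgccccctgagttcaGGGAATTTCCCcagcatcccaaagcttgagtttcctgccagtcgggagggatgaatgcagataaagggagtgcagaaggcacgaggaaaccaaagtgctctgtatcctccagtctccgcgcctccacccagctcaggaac
CXCL1: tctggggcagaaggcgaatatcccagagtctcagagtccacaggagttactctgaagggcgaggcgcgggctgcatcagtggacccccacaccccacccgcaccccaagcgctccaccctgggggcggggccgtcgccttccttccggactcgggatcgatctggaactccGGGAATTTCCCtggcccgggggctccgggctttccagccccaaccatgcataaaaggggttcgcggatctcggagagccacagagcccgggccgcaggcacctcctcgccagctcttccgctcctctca
IL8: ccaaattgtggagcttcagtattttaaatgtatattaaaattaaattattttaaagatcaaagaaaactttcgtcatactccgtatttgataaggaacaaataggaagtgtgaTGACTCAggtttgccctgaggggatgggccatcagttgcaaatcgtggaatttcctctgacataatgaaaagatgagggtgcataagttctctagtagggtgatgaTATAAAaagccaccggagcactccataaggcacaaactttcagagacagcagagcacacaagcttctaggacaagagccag

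CXCR4, the receptor of the chemokine CXCL12, moved with them at lower levels. It had 3.11, 4.2 and 4.51 RPKM in negative and 0.334, 0.323 and 0.169 in positive SW1990 samples, and 0.256, 0.411 and 0.05 in negative and 1.45, 1.12 and 1.2 in positive CFPAC-1 samples. Both lines' samples were apart, and the difference was -5.61 ± 0.54. The CXCR4 promoter, on the minus strand at chr2:136118100-136118399 and printed in the direction of the gene, held a TATA box in capitals that read on both strands, with the 2 matches beginning 32 and 30 bases before the start.
CXCR4: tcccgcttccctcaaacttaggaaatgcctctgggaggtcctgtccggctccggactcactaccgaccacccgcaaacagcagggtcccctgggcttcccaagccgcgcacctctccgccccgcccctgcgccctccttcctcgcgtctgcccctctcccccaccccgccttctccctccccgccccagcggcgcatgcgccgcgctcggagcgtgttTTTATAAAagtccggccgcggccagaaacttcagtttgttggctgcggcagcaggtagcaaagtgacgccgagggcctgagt

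SDC2, a heparan sulfate proteoglycan of the cell surface, had the most negative difference of all members, -6.55 ± 0.70. It was at 3.62, 4.23 and 3.49 RPKM in negative and 1.49, 0.372 and 1.1 in positive SW1990 samples, and at 0.206, 0.262 and 0.173 in negative and 11.4, 10.6 and 3.08 in positive CFPAC-1 samples. Each positive CFPAC-1 sample was above every negative one, replicate 3 being the lowest, and without that sample the difference was -7.15. MME, the surface peptidase neprilysin, also had its lowest positive CFPAC-1 value in replicate 3, at 1.41 RPKM beside 4.76 and 4.69, against 0.443, 0.349 and 0.383 in negative samples. In SW1990 MME stood at 96, 100.1 and 104 RPKM in negative and 37.3, 34.9 and 33.9 in positive samples, so its level in any SW1990 sample exceeded that in any CFPAC-1 sample.

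DPP4, a surface peptidase that trims chemokines and incretins, was at 3.64, 4.95 and 4.26 RPKM in negative and 0.357, 0.574 and 0.347 in positive SW1990 samples, and at 2.21, 1.68 and 2.15 in negative and 4.26, 5.03 and 4.6 in positive CFPAC-1 samples. PAPPA, a secreted protease that cleaves IGF-binding proteins, had 2.12, 2.18 and 2.15 RPKM in negative and 0.479, 0.371 and 0.329 in positive SW1990 samples, and 0.496, 0.409 and 0.265 in negative and 1.78, 1.56 and 1.61 in positive CFPAC-1 samples. For PAPPA the low groups of the 2 lines overlapped and the high groups were close without overlap. The differences were -4.24 ± 0.28 for DPP4 and -4.06 ± 0.30 for PAPPA.

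ID3, an inhibitor of basic helix-loop-helix factors that is induced by BMP signalling, was at 84.7, 64.2 and 43.7 RPKM in negative and 6.24, 3.14 and 6.01 in positive SW1990 samples. CFPAC-1 held little of it, with 0.124, 0.443 and 0.324 RPKM in negative and 0.987, 1.2 and 0.891 in positive cells. ID3 was the only member among 33 TGF-beta and BMP genes fitted, of which 2 were called higher and 13 lower in positive SW1990 cells and 5 higher and 3 lower in positive CFPAC-1 cells. CBX2, a Polycomb subunit, changed by -2.53 and 1.89, and RNF182, a ubiquitin ligase, by -3.46 and 1.33. RNF182 had no reads in 2 of 3 positive SW1990 samples.

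CALD1, the actin-binding protein caldesmon, was the only member among 21 mesenchymal and contractile cytoskeleton genes. It stood at 54.3, 59.8 and 50.7 RPKM in negative and 21.7, 20.1 and 20.5 in positive SW1990 samples, and at 1.1, 0.781 and 0.556 in negative and 6.87, 6.11 and 3.93 in positive CFPAC-1 samples. Both lines were separated, and the difference was -4.06 ± 0.31. Across that list 9 genes were called lower and none higher in positive SW1990 cells, and 2 higher and 4 lower in positive CFPAC-1 cells.

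DKK1, FZD2 and FGFR1 were members of the same direction as the chemokines, with smaller differences. DKK1, a secreted antagonist of Wnt co-receptors, was abundant, with 337, 348 and 252 RPKM in negative and 129, 126 and 109.9 in positive SW1990 samples, and 85.5, 82.1 and 86.4 in negative and 218, 185 and 179.6 in positive CFPAC-1 samples. FZD2, a Wnt receptor, had 33, 37.9 and 35 RPKM in negative and 19.3, 14.4 and 16.2 in positive SW1990 samples, and 3.25, 2.75 and 2.26 in negative and 9.58, 7.46 and 3.86 in positive CFPAC-1 samples. FGFR1, a fibroblast growth factor receptor, had 22.2, 17.3 and 17 against 10.3, 7.37 and 8.14 RPKM in SW1990 and 3.44, 2.02 and 1.84 against 6.4, 4.58 and 6.7 in CFPAC-1, negative samples first. All 3 were separated in both lines.

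DKK1 and FZD2 were the 2 members among 51 Wnt and Notch genes, of which 4 were called higher and 10 lower in positive SW1990 cells and 6 higher and 3 lower in positive CFPAC-1 cells. FGFR1 and ERBB3 were the 2 members among 22 EGFR and FGF genes and went opposite ways: in positive SW1990 cells ERBB3 rose by 2.50 and FGFR1 fell by 1.13, and in positive CFPAC-1 cells ERBB3 fell by 1.07 and FGFR1 rose by 1.28. PROCR, the endothelial protein C receptor, changed by -1.42 and 1.09, and was no member once samples were centred on their medians or quantile normalized. CYP1A1, a xenobiotic-metabolising P450 induced by the aryl hydrocarbon receptor, changed by -1.72 and 1.57 with overlap in SW1990, and the semaphorin SEMA3E by -1.48 and 1.62.

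**Figure D3:**
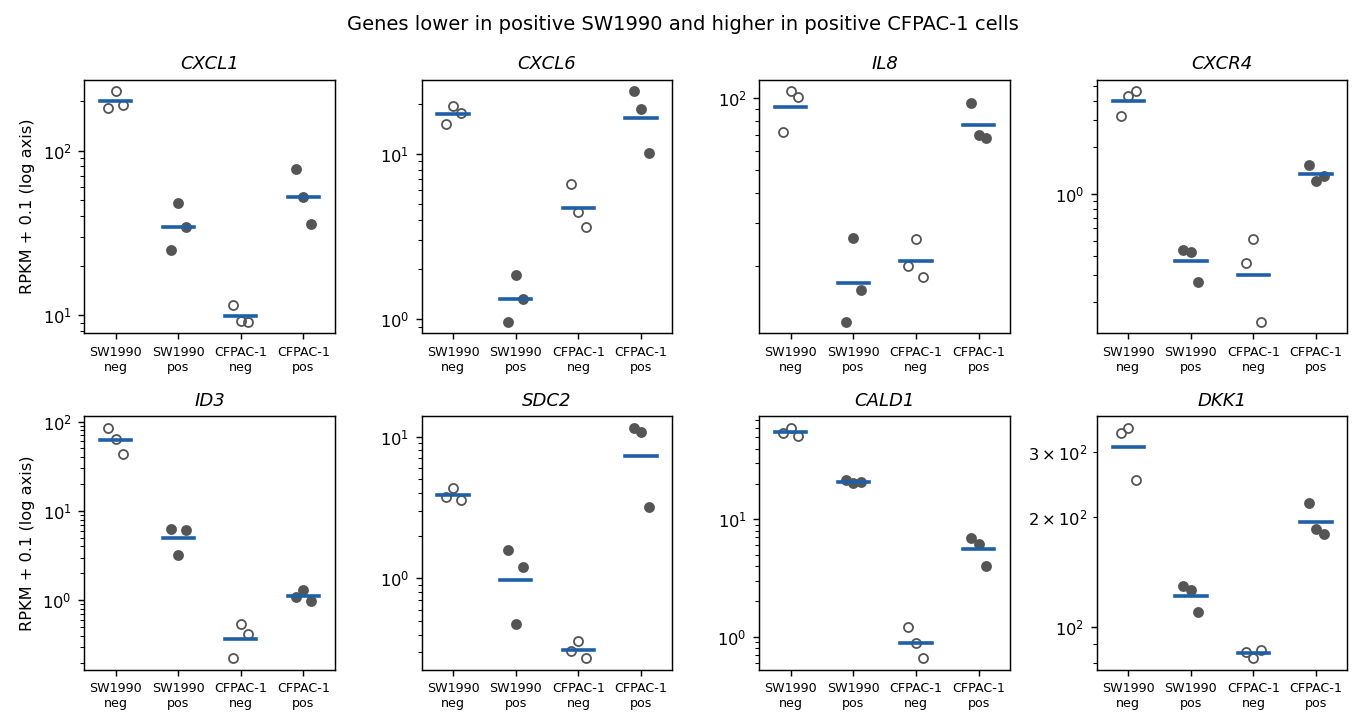
RPKM plus 0.1 on log axes for 8 genes that were lower in positive SW1990 and higher in positive CFPAC-1 cells, with 1 circle per sample (open for GCTM-5 negative, filled for positive, 3 per group) and a blue line at the mean of the log values. In every panel the groups are apart within each line. By the mean lines, SW1990 is above CFPAC-1 in negative and below it in positive cells in every panel but ID3 and CALD1. The third positive CFPAC-1 sample is the lowest of its group in every panel but CXCR4, as for SDC2 (3.08 RPKM) and CXCL1 (35.8 RPKM).

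The level of the members in one line against the other, averaged over both populations, did not enter the rule, and in this balanced design that contrast is independent of both sorting changes. Of the 76 genes higher in positive SW1990 cells, 39 were lower in SW1990 than in CFPAC-1 at an adjusted p under 0.05 in limma and 9 were higher, which is 51.3% and 11.8%. Among all genes 32.6% were lower and 42% higher. Of the 104 genes of the reverse kind, 60 were higher in SW1990 and 19 lower, which is 57.7% and 18.3%. A gene must be expressed in a line to fall there, and at levels near the pseudocount the size of a change depends on the level. Level and membership are therefore not free of each other, and these shares are a description.

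GABRP, MUC4, TMPRSS4 and KRT23 had line differences of -7.56, -5.89, -6.37 and -7.48 on the log2 scale, all with adjusted p of 4.55e-09 or less in limma, and were higher in CFPAC-1 in both populations. MME, ID3 and CALD1 lay at the other end, with 5.56, 4.77 and 3.93 in favour of SW1990. For other members the difference averaged over both populations did not pass the test. FOXJ1 had a line difference of -0.28 (adjusted p = 0.515 in limma), MUC16 of 0.04 (adjusted p = 0.931), CEACAM1 of 0.02 (adjusted p = 0.905) and IL8 of -0.03 (adjusted p = 0.904).

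The distance between the lines was smaller in positive than in negative cells for 51 of the 76 and 73 of the 104 genes, or 68.9% of the members beside 59.7% of all genes. The median absolute difference between the lines over members was 2.79 in negative and 1.68 in positive cells, beside 0.77 and 0.63 over all genes. The sign of the line difference turned between the populations for 39 of the 76 and 53 of the 104. Since the rule asks for changes over 2-fold in opposite directions, it moves the line difference of each member by at least 2 log2 units between the populations, and these counts describe the selection.

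**Figure D4:**
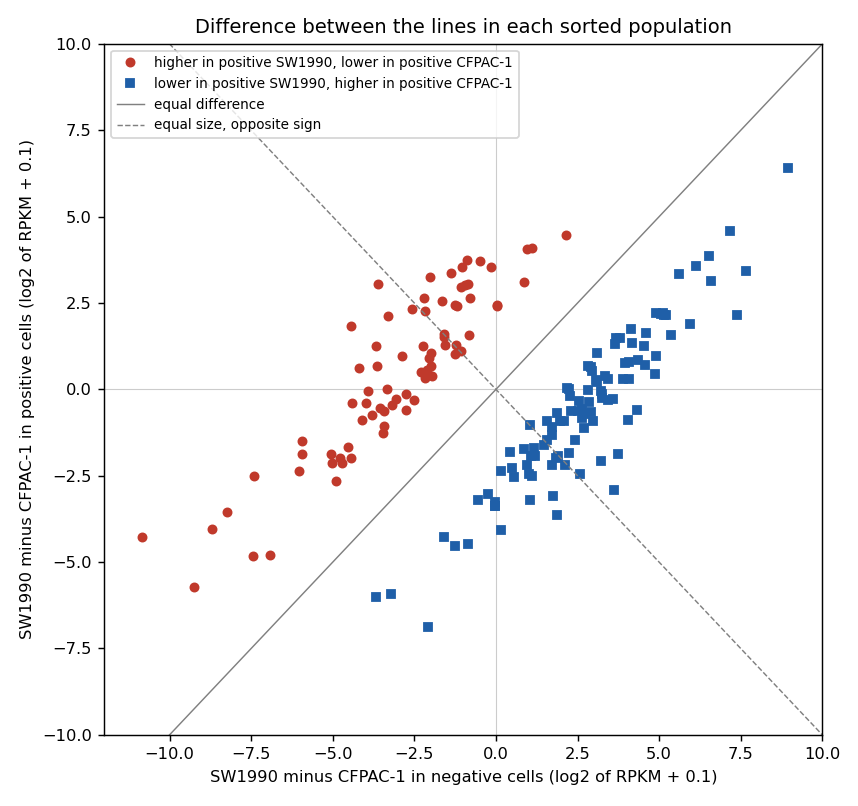
Difference between the lines, SW1990 minus CFPAC-1 on the log2 of RPKM plus 0.1, in GCTM-5 negative (horizontal axis) and positive cells (vertical axis), for 76 genes higher in positive SW1990 (red circles) and 104 genes lower in it (blue squares). Red points lie above and blue points below the solid line of equal difference, as the rule requires; 51 red and 73 blue points lie nearer to 0 on the vertical than on the horizontal axis.

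Of 897 genes fitted from 33 lists of pathways and cell types, 25 were members, 14 of one direction and 11 of the other. Among all 16236 genes fitted, 180 were members. Several lists moved strongly in one line and hardly in the other, and held no member. Among 39 genes of epithelial adhesion and polarity, 34 were called higher in positive SW1990 cells and 3 in positive CFPAC-1 cells, with median changes of 2.78 and 0.02. Among 35 S phase genes, 32 were called higher in positive CFPAC-1 cells and none in SW1990, with medians of 1.70 and 0.35. Summed over the list, the negative CFPAC-1 samples had 327 to 366 RPKM and the positive ones 976 to 1218, against 709 to 948 and 976 to 1181 in SW1990. The part of either shift in the results on the members was not tested.

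Extracellular matrix gave 1 member, COL8A1, among 39 genes, of which 19 were called lower in positive SW1990 cells and 3 in positive CFPAC-1 cells. Retinoid and xenobiotic metabolism gave 1 member in each direction, ADH1C and CYP1A1, among 24 genes, of which 4 were called higher and 7 lower in positive SW1990 cells and 1 higher and 8 lower in positive CFPAC-1 cells. The 1 member among 20 synaptic and neuronal genes was GABRP, whose known expression is in epithelia. Axon guidance gave SEMA3B in one direction and SEMA3E in the other, among 37 genes.

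**Figure D5:**
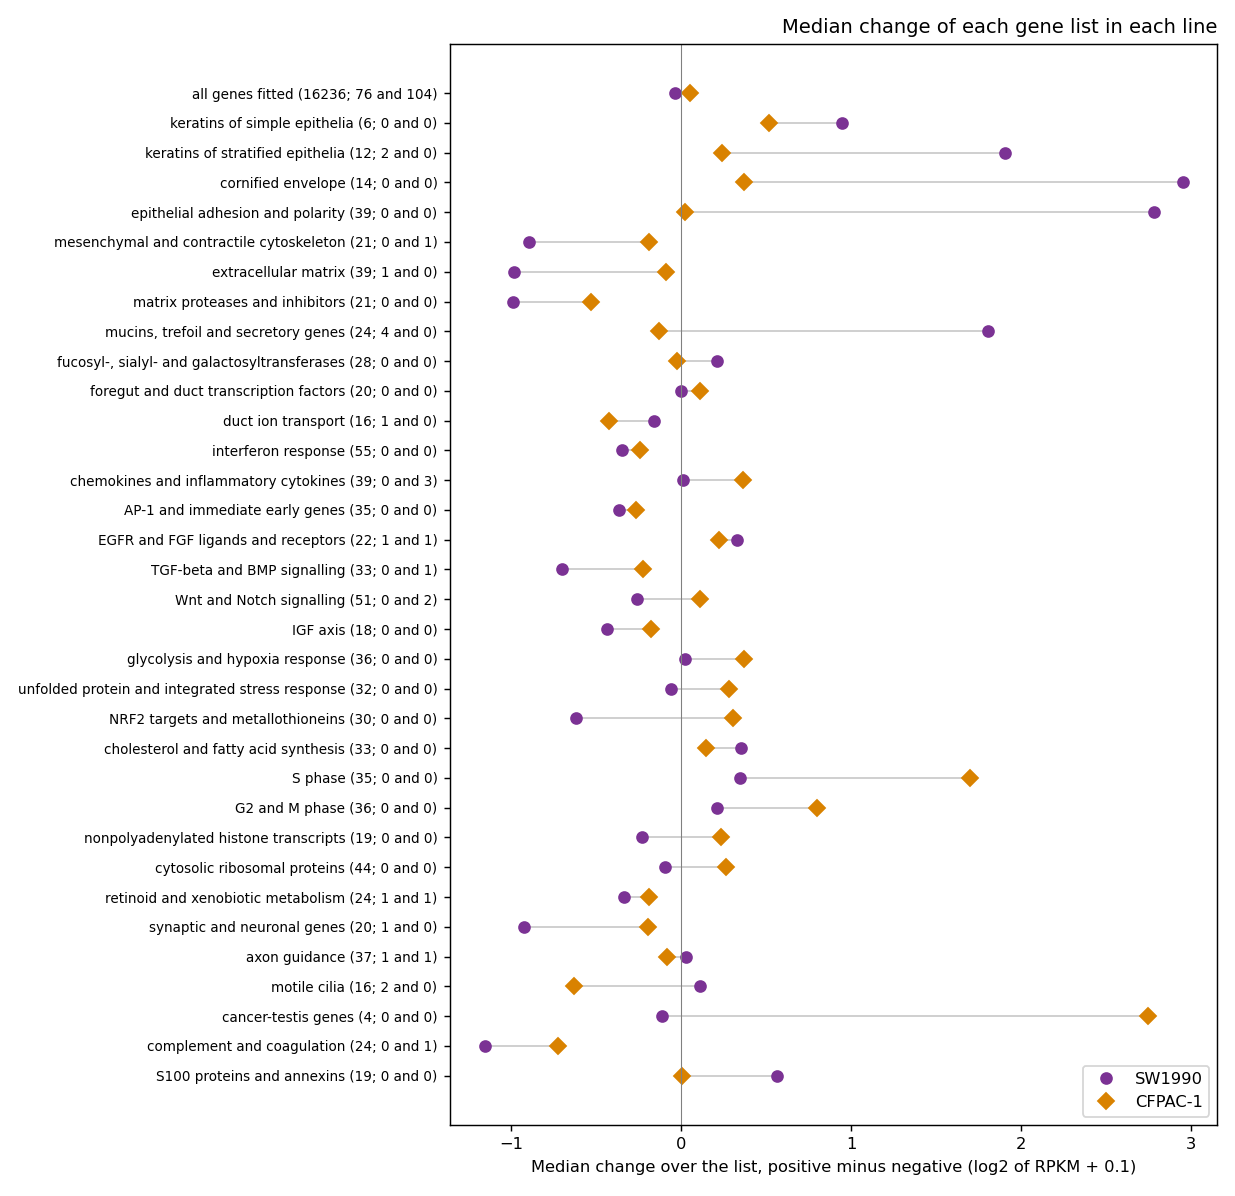
Median change between GCTM-5 positive and negative cells, on the log2 of RPKM plus 0.1, over each of 33 gene lists and over all genes fitted, in SW1990 (purple circles) and CFPAC-1 (orange diamonds); beside each name stand the number of genes fitted and then the members of each direction, those higher in positive SW1990 first. Medians lie on opposite sides of 0 for 11 of the 33 lists, among them mucins (1.81 and -0.13), motile cilia (0.11 and -0.63), NRF2 targets and metallothioneins (-0.62 and 0.30) and Wnt and Notch signalling (-0.26 and 0.11), while S phase (0.35 and 1.70) and epithelial adhesion (2.78 and 0.02) differ on one side.

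Near the threshold, RASA1, a GTPase-activating protein of RAS, and LOC344595 were just inside, with CFPAC-1 changes of -1.001 and 1.003. GRB7, an adaptor protein, and C1orf126 were just outside, with changes in SW1990 and CFPAC-1 of 1.87 and -0.998 and of 2.06 and -0.989. In 41 members at least 1 group had 3 or fewer reads in each of its libraries, so that the fitted change rests on the pseudocount. CST2, a salivary cystatin, had 5 reads in negative and 12 in positive SW1990 libraries, a ratio per library total of 2.73 (95% counting interval 0.895 to 9.89), beside 1024 and 393 reads in CFPAC-1. PYGO1, a Wnt co-activator, had 2 reads in negative and 21 in positive CFPAC-1 libraries, a ratio of 11.7 (2.86 to 103). FXYD2, a regulator of the sodium pump, had 6 reads in negative and none in positive SW1990 libraries, which was at least 1.76-fold lower with the floor of 3 reads taken over the group.

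Read sums also turned a direction. MIR559 had 1 and 21 reads in negative and positive SW1990 libraries and 22 and 21 in CFPAC-1, a CFPAC-1 ratio of 1.07 in favour of positive cells (0.557 to 2.03), although its fitted CFPAC-1 change was below -1. MIR611 had 4 and 5 reads in SW1990 and 13 and 6 in CFPAC-1. MIR762 had 13 and 3 in SW1990 and 1 and 18 in CFPAC-1, where all 18 were in positive replicate 3. These counting intervals cover counting error only. Such entries hold reads that fell on the short hairpin or small nucleolar RNA locus in a library of polyadenylated RNA, and they are no measure of the mature RNA.

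Some members share a locus. Besides the chemokines and the mucins, LINC00482 and TMEM105 on chromosome 17, PID1 and DNER on chromosome 2, HIST1H2BL and HIST1H2BO on chromosome 6, and SDC2 and CPQ on chromosome 8 were pairs of one direction within 200000 bases. C6orf25 and LY6G6C, of the same direction as SLC44A4, which lies 136478 and 141446 bases from them, overlap on opposite strands of chromosome 6, and whether reads were counted by strand is not given in the sources used here, so their reads cannot be told apart. The reverse case was 1 pair, CGB5 and NTF4 on chromosome 19, 15755 bases apart, of which CGB5 fell and NTF4 rose in positive SW1990 cells. Reads of CGB5 may be shared with its near-identical gene copies. PIR with PIR-FIGF, SEPT5 with SEPT5-GP1BB, and SNORD109A with SNORD109B are overlapping or identical entries that count the same locus again.

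Promoters of 42 of the 76 and 66 of the 104 members were found in the RefSeq table, beside 11701 of all genes fitted. On both strands of these windows the search used TGANTCA for AP-1, CACCTG for the box of the ZEB and SNAI factors, AACCNGTT for the grainyhead-like factors, CATTCC for the TEAD factors and ACGTG for the hypoxia element. The box named for TATA was searched as TATAAA, and an interferon response element and the NF-kB motif were searched as well. The motifs can overlap one another. The ZEB and SNAI box was held by 17 promoters, 40.5%, of genes higher in positive SW1990 cells, by 13, 19.7%, of genes of the reverse kind, and by 19.1% of all promoters. TATA was held by 14.3%, 16.7% and 6.11%, in the same order, and NF-kB by 19.05%, 16.7% and 12.96%. These shares are descriptions of letters in a window.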

How the data were processed

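RNA of SW1990 and CFPAC-1 cells sorted on GCTM-5 had been sequenced, with 3 samples in each of 4 groups, grouped by the line and the sorted population in the labels. The authors aligned reads to hg19 (GRCh37), counted them by gene with QuasR and deposited RPKM values, normalized for library size and gene length. The annotation and the use of strand are not given in the sources used here. For the library kit, the secondary antibody and the medium, SureSelect (strand-specific), HRP and Iscove's are in the labels and TruSeq, Alexa and RPMI in the paper. Both describe polyadenylated RNA.

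The log2 of RPKM plus 0.1 was fitted with limma 3.58.1 in R 4.3.3 (eBayes with an intensity trend, 4 group means, 2-sided tests) for the 16236 genes whose RPKM averaged 0.1 or more, and p-values were adjusted by Benjamini-Hochberg over all of them. The authors used TCC, which needs counts. Changes within a line were called at over 2-fold with unadjusted p under 0.01, and the difference between lines at adjusted p under 0.05. The SE is that of the fitted contrast.

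Library totals and whole reads were recovered from the values, using single-exon gene lengths from GENCODE 44 mapped to GRCh37. All 19654 genes above 0 in any sample gave whole reads to within 0.01. The reads are the smallest whole numbers that give the values. Fits and recovery were tested on simulated data. Coordinates are from GENCODE on GRCh37, and promoters are from RefSeq on GRCh38.p14. Intervals are exact binomial.

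Named genes were, per direction, the 12 members with the largest differences among those with a called difference, a mean RPKM of at least 1, no overlap in either line and over 3 reads in some library of each group. Added were all members on any of 33 lists, the 3 members per direction with the highest level among those with a group of at most 3 reads per library, and the 2 genes on each side of the threshold. Members, lists and tests were chosen with earlier results of these data known. Alternatives were pseudocounts of 1 and 0.01, no filter or a mean RPKM of at least 1, median centring, quantile normalization, a replicate block, eBayes without a trend, voom on recovered reads, ratios of mean RPKM, an adjusted p under 0.01 within lines, and each sample left out in turn.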

Additional observations from a re-analysis of the deposited data

Results flagged for a closer look

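Changes on sorting differed between SW1990 and CFPAC-1, by limma's test of the difference itself, in 66 of the 76 members higher in positive SW1990 cells and in 96 of the 104 of the reverse kind. The rule chose the members on these changes, so the counts carry no weight beyond the selection.

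The genes given here are the 12 of each direction with the largest differences among members with a called difference, a mean RPKM of at least 1, no overlap in either line and over 3 reads in some library of each group. Members outside these limits, such as MIR559 at 6.26, LY6G6C at 5.26 and FSTL5 at -5.28, also had large differences. Among the genes higher in positive SW1990 cells, the largest of these differences on the log2 scale were 6.67 for FOXJ1, 6.56 for GABRP, 4.90 for KLK8, 4.85 for HSD11B1, 4.82 for ADH1C and 4.69 for MUC4. They were followed by 4.65 for TMPRSS4, 4.64 for SLC22A20, 4.59 for CYP2W1, 4.47 for SLC44A4, 4.33 for CLIC5 and 3.88 for TMC4. Among the genes of the reverse kind they were -6.55 for SDC2, -5.61 for CXCR4, -5.51 for CXCL6, -5.22 for ID3, -4.94 for CXCL1 and -4.79 for RNF182. The next were -4.42 for CBX2, -4.30 for IL8, -4.24 for DPP4, -4.24 for MME, -4.06 for PAPPA and -4.06 for CALD1. Adjusted p in limma for these 24 genes ran from 4.17e-06 for DPP4 to 0.000515 for CYP2W1, where the choice required it to be under 0.05. The choice also required all 3 positive samples to lie on opposite sides of the negative samples in the 2 lines. KLK8, HSD11B1, TMPRSS4, SLC22A20, CYP2W1 and SLC44A4 had no unadjusted p under 0.01 for the CFPAC-1 change. In positive CFPAC-1, replicate 3 was nearer to the negative cells than the other 2 samples for ADH1C, SDC2 and MME. It was so for others of the 24 as well, among them CXCL6, CXCL1, CALD1 and RNF182, but not for FOXJ1 or CXCR4.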

How the results depend on the processing

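The difference between lines kept its sign for the 40 genes named with it under every setting fitted. Leaving out positive replicate 3 of CFPAC-1 turned the CFPAC-1 direction of 3 members, MIR559, MIR762 and MIR939. The ratio of mean RPKM was against the fitted direction for 3 members, at 1.05 for MIR1909 and 1.03 for MIR939 in CFPAC-1 and 1.19 for MIR3662 in SW1990. The reverse kind was the larger in the values reported, but centring gave 94 and 88 members and quantile normalization 98 and 91. The number of members depended mainly on the pseudocount. With a pseudocount of 1 the rule gave 21 genes higher in positive SW1990 and 17 of the reverse kind, of which 19 and 17 passed p under 0.01 in both lines, and the calls within lines were 489 higher and 612 lower in SW1990 and 475 higher and 284 lower in CFPAC-1. With 0.01 it gave 166 and 234 members. Of 40 genes named with their difference, 23 stayed members with a pseudocount of 1 and 15 in every setting. A mean RPKM of at least 1 left 67 members of the reverse kind, 781 genes called lower in SW1990 and 427 called lower in CFPAC-1, as fewer genes were tested. The ratio of mean RPKM gave 132 and 250 members, and voom on recovered reads 220 of the reverse kind. Without each sample in turn, members ran from 70 to 91 and from 100 to 131, those called in both lines from 25 to 46 and from 67 to 90, and genes called for the difference from 1144 to 1766 higher and from 2208 to 3310 lower. Of the members, 25 and 61 were kept whichever sample was left out. The counts of members on the test of line level ran from 39 to 42 and from 56 to 61. The difference between lines stayed past the threshold for 38 of 40 genes in all settings. KRT23 lost it with voom (adjusted p = 0.0994 in limma). KRT4 lost it without negative replicate 2 or 3 of either line or without positive replicate 3 of SW1990, at adjusted p of 0.0553 to 0.0687.

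Deviations of samples with the same replicate number had correlations of 0.18, 0.02 and 0.12 in SW1990 and -0.02, 0.00 and -0.06 in CFPAC-1. For different numbers they ran from -0.25 to 0.16 in SW1990 and from -0.03 to 0.04 in CFPAC-1. The numbers were not taken as pairs, but these few values cannot settle whether SW1990 samples were paired. With a replicate block the members were unchanged at 76 and 104, 41 and 77 were called in both lines, and 1434 and 2696 genes were called for the difference. Depth limits the 41 members with a group of at most 3 reads per library.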
